A study of Saccharomyces cerevisiae with 24 samples.

Results

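The genes for mitochondrial ribosomal proteins were examined in RNA-seq data of budding yeast, in which liquid cultures had been handled by a pipetting robot at 4 speeds. They were chosen by name, as genes whose standard symbol is MRPL, MRPS, MRP or RSM followed only by digits. Of the 5193 genes measured, 59 met this rule, and all 59 passed the filter on low counts, with at least 230 estimated reads in every library. The rule takes 67 genes in the R64 reference annotation of yeast, and the other 8 were not analysed here.

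Mitochondria keep a small genome and a ribosome of their own. This ribosome translates a handful of mRNAs, mostly for membrane subunits of the respiratory chain and ATP synthase, while nearly all of its proteins are encoded in the nucleus, made in the cytosol and imported. In yeast grown on glucose respiration is partly repressed, and the mRNAs of these proteins are also known targets of the RNA-binding protein Puf3, which promotes their decay on glucose.

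Of the 59 genes, 34 encode proteins of the large subunit and 24 encode proteins of the small subunit. By their ribosomal names in the annotation, 35 have a counterpart in bacterial ribosomes and 22 are specific to mitochondria. RSM22, which resembles methyltransferases, was put in neither of these classes. MRP8 carries the name but not the role, since the annotation says that it was once thought from its sequence to be such a protein. It is counted as a member and is always named apart.

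All 24 libraries came from the wild-type strain W303-1B (MATa ade2 trp1 can1 leu2 his3 ura3), grown at 30 °C in YPD liquid medium supplemented with adenine, and no group was given a drug or other treatment. The OT-2 robot aspirated, mixed and dispensed the cells at 50, 130, 210 or 290 µL/s, with 6 libraries at each speed. These were 3 technical replicates (T1 to T3) of each of 2 biological replicates, which were separate cultures of identical clones and are called culture 1 and culture 2 here. Libraries are written with the speed first, and 50 B1T3 stands for T3 of culture 1 handled at 50 µL/s. What set the technical replicate numbers apart is not given in the sources used here, and with 1 culture for each biological replicate, p-values measure how libraries vary, not how cultures do. Estimated reads summed to between 11555761 and 15464428 per library.

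Fold changes are given as log2 differences of read counts scaled between libraries (TMM), with their standard error (SE). Levels are given in TPM, the share of a library's transcripts after correction for gene length, scaled to a fixed total, and a gene was called changed at an adjusted p below 0.01 in edgeR's quasi-likelihood test over all 5142 genes tested. In bulk RNA of a culture, fewer cells that express a gene and less of its RNA per cell cannot be told apart.

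The members were expressed at moderate levels. Together they held 7924 ± 587 TPM (SD, n = 24 libraries), or 0.792% of all transcripts on this scale, with 4365 ± 356 TPM in the large subunit and 3176 ± 255 TPM in the small subunit. The median level was 124 TPM for a large subunit gene and 122 TPM for a small subunit gene. Genes with a bacterial counterpart had a median of 128 TPM and those specific to mitochondria a median of 116 TPM.

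Among the ribosomal members, MRPS12 (uS12m, the counterpart of a protein at the bacterial decoding centre) had the highest mean level at 344 ± 25.3 TPM. It was followed by MRPS16 (bS16m) at 305 ± 22.7 TPM and by the large subunit genes MRPL51 (mL43) at 212 ± 15.2 TPM, MRPL23 (uL13m) at 186 ± 16.2 TPM and MRPL31 (mL60) at 182 ± 18.4 TPM. The last 2 differed by less than their spread over libraries.

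RSM22 stood lowest at 29.2 ± 3.76 TPM, 11.8 times below MRPS12. Next above it were MRPL28 (mL40) at 78.2 ± 10.2 TPM, RSM23 (mS29) at 80.6 ± 8.19 TPM and MRP13 (mS44) at 81.0 ± 9.11 TPM, which did not differ beyond their spread. MRP8 had the highest mean of all, 384 ± 38.5 TPM, but this order depended on the technical replicate number, since MRPS12 was above MRP8 in 8 of 8 libraries of T3, 0 of 8 of T2 and 0 of 8 of T1. The coefficient of variation over the 24 libraries was between 5.29% in MRP17 and 13.6% in MRPL3 and MRP2.

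The ribosomal members moved together from library to library. In log2 CPM, counts scaled to library size, the correlation of a member with the mean of the others had a median of 0.80 over 24 libraries and was above 0.5 for 55 of the 59. These libraries share cultures and technical replicate numbers. After speed, culture and technical replicate number were taken out as separate effects, the median was 0.77 and 54 were above 0.5. Differences between technical replicate numbers that were seen in only 1 culture were not taken out. No such correlation is given here for other genes. MRP8 was the lowest, at -0.76 before and -0.25 after. MRPL24 (bL28m) was the lowest ribosomal member before this step, at 0.30.

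**Figure D1:**
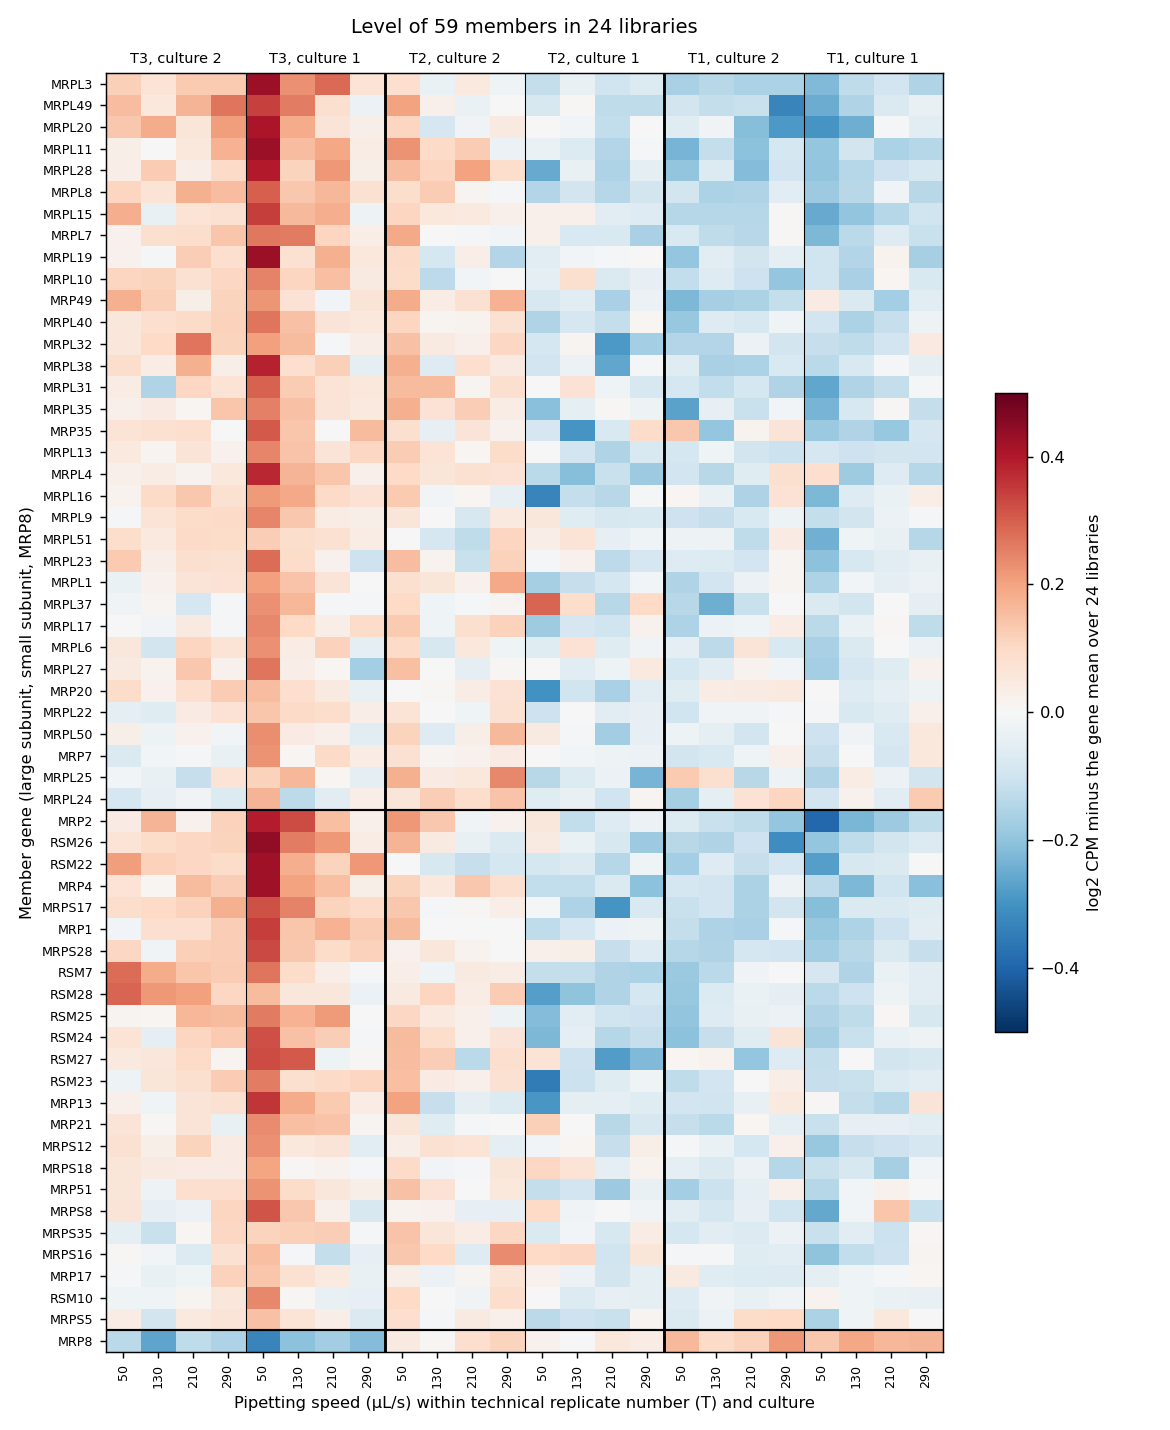
Level of each of the 59 members (rows, by subunit and then by fold change of T3 over T1) in the 24 libraries (columns, by technical replicate number, culture and speed), as log2 CPM minus the mean of the gene. The ribosomal members are mostly above their mean in T3, most of all in 50 B1T3, and mostly below it in T1, while MRP8 in the bottom row runs the other way.

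The study asked whether pipetting speed changes gene expression. At 130, 210 and 290 µL/s, none of the 59 members was called against 50 µL/s in a new fit of the study's model of speed and culture. Of all genes, 0% were called at 130 and 0% at 210, against 0.0389% at 290 µL/s. The paper, which used the generalized linear model mode of another version of edgeR, reported no gene at a false discovery rate below 0.01. Its figures cover 5193 genes, against 5142 tested here. Why the calls over all genes differ was not tested. In that model 0, 2 and 0 members had an unadjusted p below 0.05 at 130, 210 and 290 µL/s, and DESeq2 and limma-voom also called 0 members at each speed.

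Technical replicate number was then added beside speed and culture (the three-factor model). No member was called at any speed in this model either, with 0, 5 and 1 members at an unadjusted p below 0.05 at 130, 210 and 290 µL/s. Of all genes it called 0% at 130 and 0% at 210, against 4.22% at 290 µL/s. The median log2 difference of the members from 50 µL/s was -0.04 at 130, -0.03 at 210 and -0.03 at 290 µL/s, and for the last of these the median of all genes was -0.01. The sign of these medians rested on 1 library, since without 50 B1T3 they were 0.0137 at 130, 0.0028 at 210 and 0.0111 at 290 µL/s. With fragment length as a covariate the median at 290 µL/s was 0.0024. No approximate 95% confidence interval of a member reached beyond a change of 1.27-fold at any speed in either model.

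The summed level of the members was 7986 ± 984 TPM at 50 µL/s, 7839 ± 463 TPM at 130 µL/s, 7887 ± 502 TPM at 210 µL/s and 7985 ± 358 TPM at 290 µL/s (SD, n = 6 libraries each). These means differ by less than the spread within any speed.

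The lowest adjusted p of any member by speed was that of RSM26 (mS42), a small subunit protein related to superoxide dismutases. Its lowest, median and highest levels were 103, 122 and 167 TPM at 50 µL/s, 107, 119.7 and 147 TPM at 130 µL/s, 111, 116 and 145 TPM at 210 µL/s, and 96.3, 115 and 133 TPM at 290 µL/s. The 4 speeds overlapped widely. At 290 against 50 µL/s its log2 difference was -0.15 (SE 0.0548, adjusted p = 0.0713).

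The next lowest p-values at 290 against 50 µL/s belonged to RSM27 (mS33, log2 -0.13, adjusted p = 0.188), MRP21 (bS21m, log2 -0.08, adjusted p = 0.224) and MRPS18 (uS11m, log2 -0.06, adjusted p = 0.259). MRPL24 had a log2 difference of 0.09 (adjusted p = 0.296) and MRP8 one of 0.04 (adjusted p = 0.339).

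Genes of the cytosolic ribosome, which translates nuclear mRNAs, gave other counts in the same comparison. Of the 67 cytosolic ribosomal protein genes found by symbol in these data, 43 were called lower at 290 against 50 µL/s. Over all genes tested, 4.22% were called in either direction. The median log2 difference of the 67 was -0.18, while 0 of the 59 members were called. The summed level of the 67 was 187189 to 226225 TPM at 50 µL/s and 162787 to 202520 TPM at 290 µL/s, with overlap. How the 43 calls change with a library left out is not given here. The difference between these lists was not tested. No interaction of speed with technical replicate number was called for a member or for any gene tested (0%), with 2 members and 134 genes at an unadjusted p below 0.05.

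The members differed between technical replicate numbers. In T3 against T1, 37 of the 59 members rose (62.7%), where 26.2% of all genes tested were called higher, and 1 member, MRP8, fell, where 23.1% were called lower. The log2 difference was positive for 57 members. Its median was 0.17 (1.13-fold) over the members and 0.01 over all genes, 52.7% of which were positive.

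All of these changes were small. The approximate 95% confidence intervals of the members reached no further than 1.37-fold in either direction. Summed over the members, the 8 libraries of T3 held 7971 to 9530.2 TPM (mean 8479.8 ± 471) and those of T1 held 7036 to 7818 TPM (mean 7477 ± 248), so that the groups did not overlap.

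In TPM, 25 members had all 8 libraries of T3 above all 8 of T1, against 17.5% of all genes tested, and 1 member, MRP8, had all 8 below, against 8.36%. In fitted counts, 22 of 34 large subunit genes and 15 of 24 small subunit genes rose, with medians of 0.18 and 0.17. Of the genes with a bacterial counterpart 21 of 35 rose (median 0.16), and of those specific to mitochondria 15 of 22 rose (median 0.19).

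**Figure D2:**
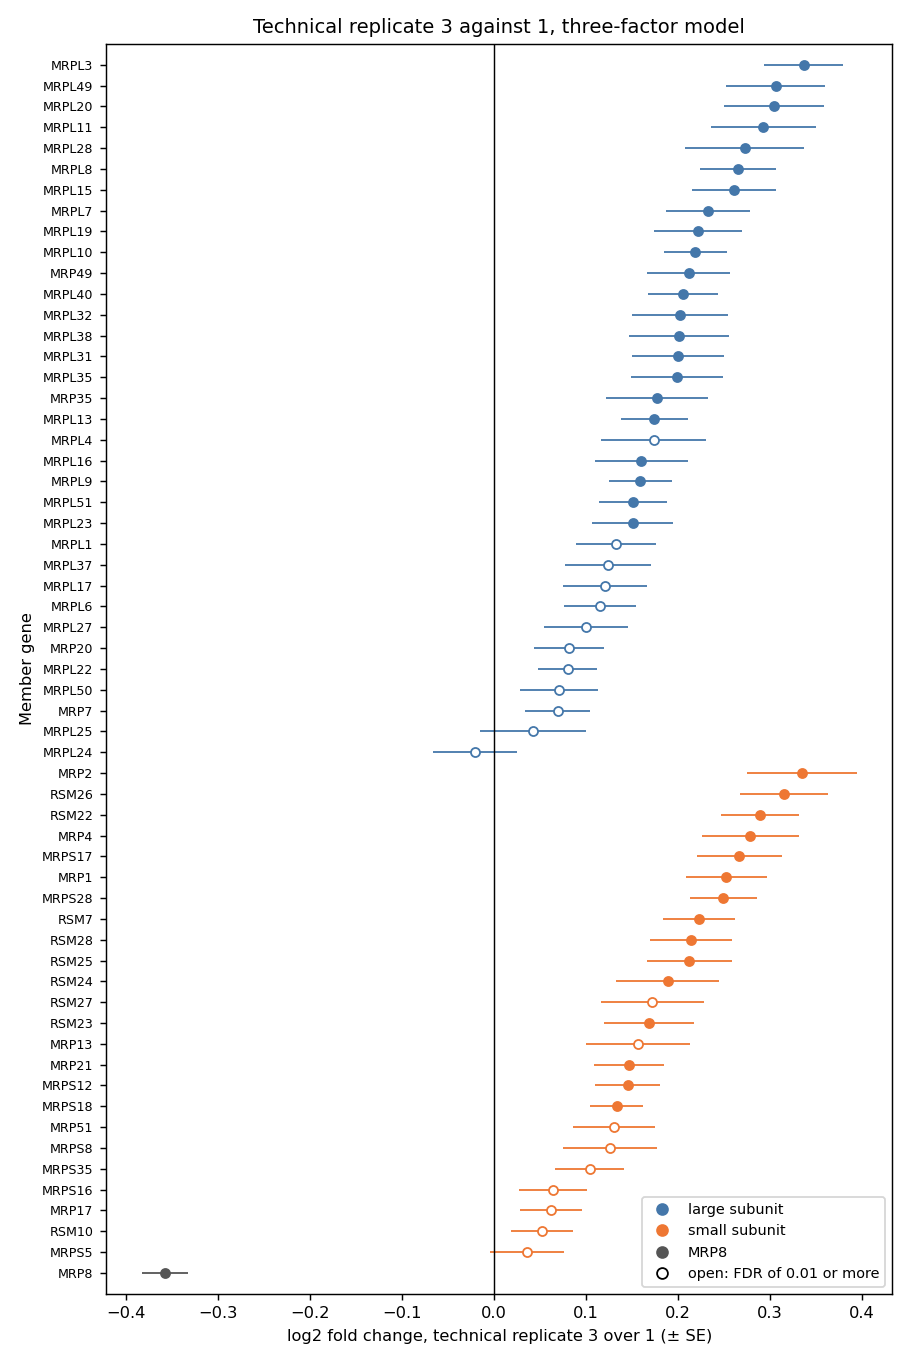
Fold change of T3 over T1 for each member in the three-factor model (log2, ± SE, n = 8 libraries per technical replicate number), with filled points below an adjusted p of 0.01. The ribosomal members of both subunits lie between -0.02 and 0.34, and MRP8 lies at -0.36.

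MRPL3 (mL44), a large subunit protein with a domain like that of ribonuclease III, had the largest rise. The lowest, median and highest levels were 122, 129.97 and 161 TPM in T3, against 98.0, 104 and 109 TPM in T1. The 2 groups did not overlap. The log2 difference was 0.34 (SE 0.0431, adjusted p = 6.93e-07), or 1.26-fold. MRPL15 (mL57), which has the same fold, rose by 0.26 (SE 0.0455, adjusted p = 3.68e-05), with 108 to 144 TPM in T3 and 91.2 to 111 TPM in T1.

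Among the small subunit genes, RSM26 and MRP1 (mS43), the pair related to superoxide dismutases, both rose. RSM26 had 127, 132 and 167 TPM in T3, against 96.3, 109 and 116 TPM in T1 (log2 0.32, SE 0.0475, adjusted p = 5.95e-06). MRP1 had 119, 134 and 155 TPM in T3, against 102, 108 and 118 TPM in T1 (log2 0.25, SE 0.044, adjusted p = 3.61e-05). In both genes T3 lay wholly above T1.

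RSM22, the lowest in level, had 31.3, 33.2 and 39.8 TPM in T3, against 23.4, 27.2 and 29.4 TPM in T1. These groups did not overlap, and the log2 difference was 0.29 (SE 0.0424, adjusted p = 4.34e-06). MRP2 (uS14m) had the second largest rise of all members at 0.33 (SE 0.0594, adjusted p = 4.46e-05), with 148 to 196 TPM in T3, against 108 to 137 TPM in T1.

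Counterparts of conserved bacterial proteins rose as well. MRPS28 (uS15m) had 110.3, 124 and 144 TPM in T3, against 97.0, 103 and 106 TPM in T1 (log2 0.25, SE 0.0362, adjusted p = 3.84e-06). MRPL8 (bL17m) had 132, 143 and 159 TPM in T3, against 109, 115 and 124 TPM in T1 (log2 0.27, SE 0.041, adjusted p = 8.41e-06). In both, the groups did not overlap. The log2 difference was 0.27 for MRPS17 (uS17m, adjusted p = 3.21e-05) and 0.22 for MRPL10 (uL15m, adjusted p = 1.05e-05).

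Among the most abundant ribosomal members, MRPS12 rose by 0.15 (adjusted p = 0.00125) with overlapping groups, 347 to 411 TPM in T3 and 294 to 348 TPM in T1. MRPL51 rose by 0.15 (adjusted p = 0.00131) without overlap, at 219 to 235 TPM in T3 and 175 to 217 TPM in T1. MRPL23 rose by 0.15 (adjusted p = 0.00521) and MRPL31 by 0.20 (adjusted p = 0.0016). MRPS16 was not called, with a log2 difference of 0.06 (adjusted p = 0.137).

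Of the least abundant, MRPL28 rose by 0.27 (adjusted p = 0.000967) and RSM23 by 0.17 (adjusted p = 0.00504), while MRP13 was not called (log2 0.16, adjusted p = 0.0209). MRPL24 was the only ribosomal member with a negative difference, -0.02 (SE 0.0459, adjusted p = 0.719), and this turned to 0.03 when library totals were used in place of TMM. Its levels were 112 to 138 TPM in T3 and 105 to 134 TPM in T1.

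The 21 members without a call were 12 of the large and 9 of the small subunit, and 20 of them had positive differences. Those nearest to the threshold were MRPL4 (log2 0.17, adjusted p = 0.0113), RSM27 (log2 0.17, adjusted p = 0.0114) and MRPL1 (log2 0.13, adjusted p = 0.0121), all with overlapping groups. The called members nearest to it were MRPL16 (uL16m, log2 0.16, adjusted p = 0.00941) and MRP35 (log2 0.18, adjusted p = 0.00894).

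MRP8 fell. Its lowest, median and highest levels were 310.1, 346 and 355 TPM in T3, 365, 386 and 412 TPM in T2, and 401, 423 and 441 TPM in T1. T3 lay wholly below T2 and T1, and T2 overlapped with T1. The log2 difference was -0.36 for T3 against T1 (SE 0.0253, adjusted p = 1.945e-10), -0.24 for T3 against T2 (adjusted p = 2.3e-07) and -0.11 for T2 against T1 (adjusted p = 0.00571).

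In T3 against T2, 16 members rose (20.1% of all genes were called higher) and MRP8 was the 1 that fell (18.4% were called lower), with 55 positive differences and a median of 0.12 (0.07 without 50 B1T3). RSM22 rose most, by 0.26 (SE 0.0423, adjusted p = 2.87e-05), and after it RSM7 (uS7m), by 0.20 (adjusted p = 0.00024), and MRPL3, by 0.22 (adjusted p = 0.000249), had the lowest p-values among those that rose. RSM22 had 31.3 to 39.8 TPM in T3 and 25.6 to 29.8 TPM in T2, with no overlap.

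In T2 against T1 no ribosomal member was called, where 1.77% of all genes were called higher, and MRP8 was the 1 member called lower, where 2.51% were. Differences were positive for 54 members with a median of 0.06, and 23 members had an unadjusted p below 0.05. The largest was MRP2 at 0.20 (adjusted p = 0.0334), and MRPS18 (0.12, adjusted p = 0.0115), MRPS16 (0.14, adjusted p = 0.0184) and MRPL15 (0.16, adjusted p = 0.0291) had the lowest p-values after MRP8.

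The library 50 B1T3 had the highest summed level of the members, 9530.2 TPM. Without it, 31 ribosomal members rose and MRP8 fell in T3 against T1. In T3 against T2 the number called was 8 without it, in place of 17. In T2 against T1 it was 5 in place of 1, and 4 of the 5 rose. This library is in neither T2 nor T1, and the median of the members in that comparison was 0.063 with it and 0.0621 without it. Why the count changed was not tested. The share of all genes called without this library is not given here. The count in T3 against T2 also went down to 9, 10 or 11 without 1 of 50, 210 or 290 B1T2, 130 B2T2, 130 or 210 B1T3, or 210 or 290 B2T3. The single call in T2 against T1, MRP8, is at the edge of the threshold. The count was 0 without 1 of 50, 130 or 210 B1T1, 290 B2T1, 130, 210 or 290 B1T2, or 50, 130 or 210 B2T2, and 2 without 290 B1T1 or 210 B2T1. Mean fragment length differed little, with 184 ± 3.94 bases in T3, 185 ± 2.00 in T2 and 185 ± 2.67 in T1 (SD, n = 8 each), and with fragment length as a covariate 37 members were called in T3 against T1.

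The technical replicate numbers did not behave alike in the 2 cultures. Summed levels of the members were 8243 ± 220 TPM in T3, 8238 ± 287 TPM in T2 and 7464 ± 183 TPM in T1 of culture 2. In culture 1 they were 8717 ± 565 TPM in T3, 7393 ± 177 TPM in T2 and 7491 ± 331 TPM in T1 (SD, n = 4 libraries each). T2 stood beside T3 in culture 2 and beside T1 in culture 1.

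MRPL3 gives an example. At 50, 130, 210 and 290 µL/s of culture 2 it had 128, 122, 129.6 and 130.3 TPM in T3, 127, 114, 123 and 114 TPM in T2, and 103, 104, 104 and 104 TPM in T1. In culture 1 it had 161, 140.2, 147 and 126 TPM in T3, 101, 111, 107 and 109 TPM in T2, and 98.0, 107, 109 and 107 TPM in T1. T2 lay wholly above T1 in culture 2, and overlapped with it in culture 1.

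**Figure D3:**
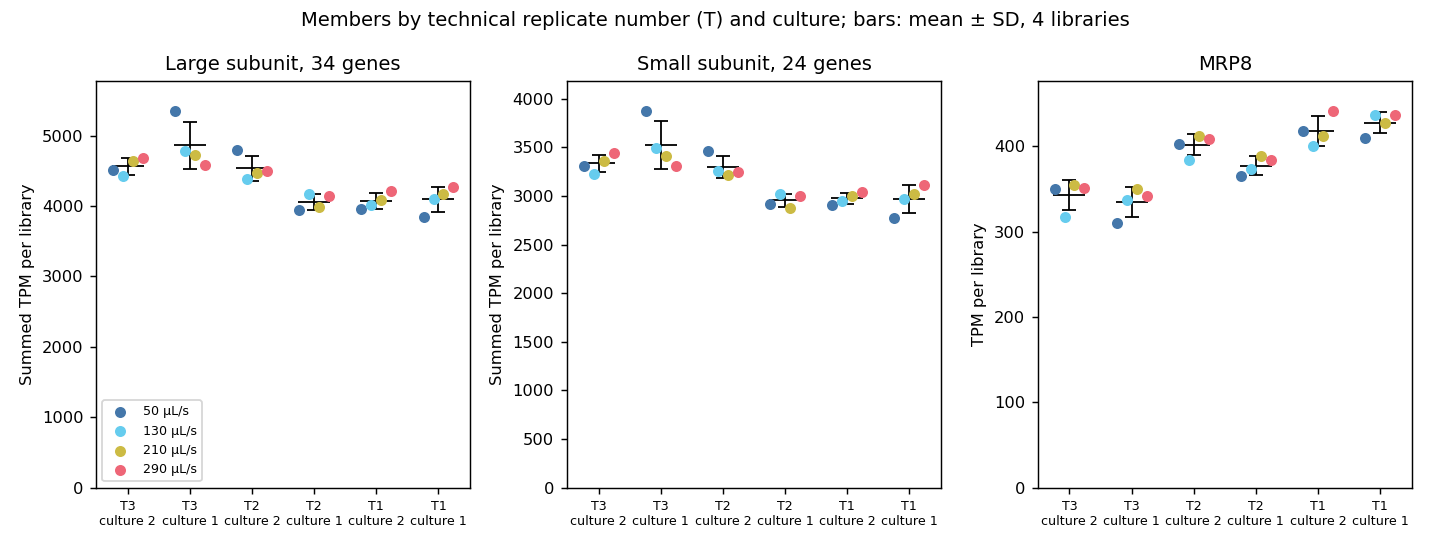
Summed TPM of the large and small subunit members and TPM of MRP8 in each library, by technical replicate number and culture, with points coloured by speed and bars for mean ± SD over 4 libraries. In culture 2 the ribosomal sums of T2 reach those of T3, whereas in culture 1 they stay with those of T1, and 50 B1T3 is the highest point in both subunits.

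The cultures were then fitted separately, a choice made after these sums were seen. In culture 2, 22 members rose in T3 against T1 (23% of all genes were called higher), 5 rose in T2 against T1 (4.11%) and 1 rose in T3 against T2 (16.5%). In culture 1, 18 members rose in T3 against T1 (14%), 0 in T2 against T1 (0.214%) and 13 in T3 against T2 (11.6%). The 0 stands beside 2 members at an unadjusted p below 0.05.

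The median log2 differences of the members in culture 2 were 0.13 for T3 against T1, 0.12 for T2 against T1 and 0.02 for T3 against T2. In culture 1 they were 0.19, 0.02 and 0.20 for the same comparisons. The difference of T2 from T1 was greater in culture 2 for 53 of the 59 members, that of T3 from T2 was greater in culture 1 for 56, and that of T3 from T1 was greater in culture 1 for 50. These comparisons share libraries within each culture, and the members move together, so the counts are not of separate results. The same counts over all genes are not given here. Both T3 comparisons in culture 1 include 50 B1T3. Log2 CPM minus the gene mean was averaged over the members. In T3 of culture 1 it was 0.26, 0.12, 0.08 and 0.02 at 50, 130, 210 and 290 µL/s. In T3 of culture 2 it was 0.05, 0.03, 0.07 and 0.08.

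In T3 against T1, 12 members rose in both cultures, 54.5% of those that rose in culture 2 and 66.7% of those that rose in culture 1. The share of all genes that rose in both cultures is not given here, so this overlap cannot be called particular to the members. The members were these. The 12 were MRPL3, MRPL8, MRPL11, MRPL15 and MRPL40 of the large subunit and MRP1, MRP2, MRP4, MRPS17, MRPS28, RSM22 and RSM26 of the small subunit. The 5 that rose in T2 against T1 of culture 2 were MRPL3, MRPL11 (uL10m), MRPL28, MRP4 (uS2m) and MRP49 (mL61). In T3 against T2 of culture 2 the 1 that rose was RSM22, and MRP8 and MRPL24 fell.

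**Figure D4:**
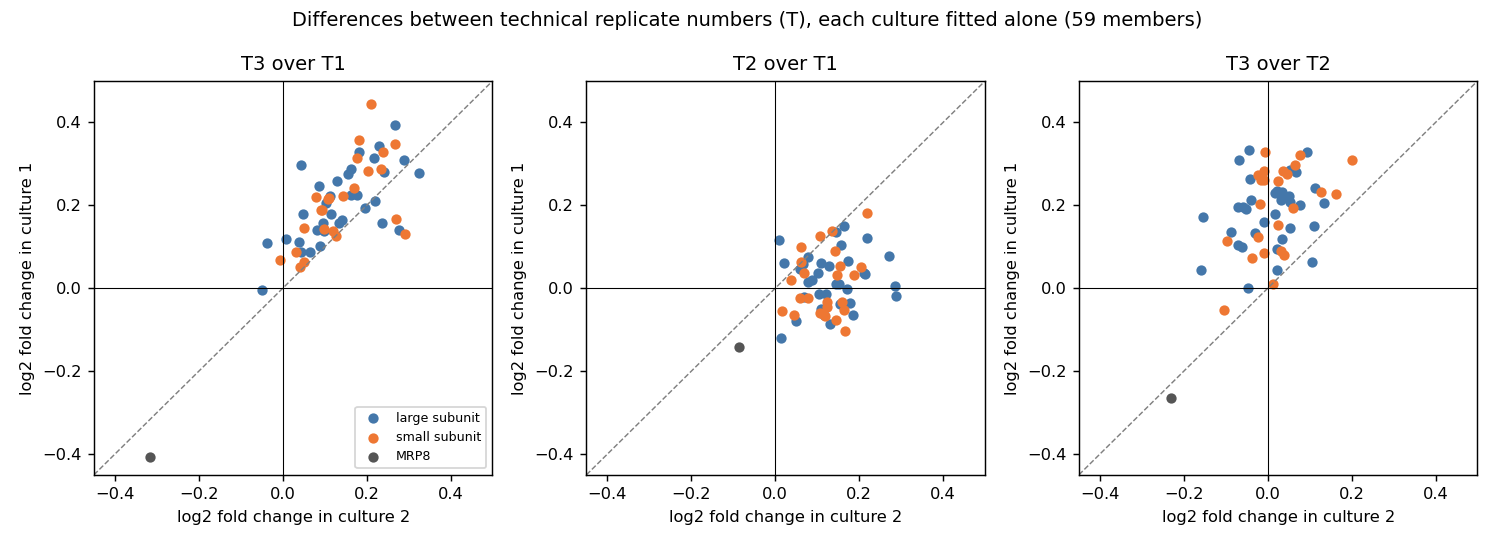
Log2 fold change of each member in culture 2 (horizontal axis) and culture 1 (vertical axis), each culture fitted alone with 4 libraries per technical replicate number, for the 3 pairs of technical replicate numbers. Members lie mostly above the dashed line of equality for T3 over T1 (50 of 59) and for T3 over T2 (56 of 59), and mostly below it for T2 over T1 (53 of 59). Both T3 comparisons in culture 1 include 50 B1T3, the library with the highest summed level of the members.

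The difference between the cultures was tested within each technical replicate number in 1 model. In T2, 6 members were higher in culture 2 than in culture 1 (5.02% of all genes were called higher), and none was lower (3.25% were called lower). The log2 difference was positive for 54 of the 59 with a median of 0.12, against -0.0034 for all genes. In TPM, 32 members had all 4 libraries of culture 2 above all 4 of culture 1 (18.8% of all genes) and none had all 4 below (3.35%).

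RSM28 (mS46) of the small subunit differed most clearly. At 50, 130, 210 and 290 µL/s it had 121, 123, 119 and 123 TPM in T2 of culture 2, against 88.2, 97.0, 100.3 and 105 TPM in T2 of culture 1. All 4 libraries of culture 2 were higher. The log2 difference was 0.26 (SE 0.05, adjusted p = 0.00104).

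MRPL13 (mL50) had 144, 136, 132 and 136 TPM in T2 of culture 2, against 121, 118, 114 and 119.6 TPM in T2 of culture 1 (log2 0.15, SE 0.0356, adjusted p = 0.00459). MRPL4 (uL29m) had 124, 118, 121 and 118 TPM in culture 2, against 96.6, 95.5, 102 and 97.5 TPM in culture 1 (log2 0.24, SE 0.0563, adjusted p = 0.00589). Neither gene overlapped between the cultures in T2.

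MRP49 had 165, 147, 153 and 161 TPM in T2 of culture 2, against 128, 136, 126 and 137 TPM in T2 of culture 1 (log2 0.20, adjusted p = 0.00545). MRP4 had 107, 101, 108 and 102 TPM in culture 2, against 83.3, 86.8, 89.8 and 82.1 TPM in culture 1 (log2 0.23, adjusted p = 0.00692). MRPL1 (uL1m) had 138, 133, 131 and 144 TPM in culture 2, against 106, 115, 117 and 123 TPM in culture 1 (log2 0.19, adjusted p = 0.00986). All 3 were higher in every library of culture 2.

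These 6 calls rest on few libraries. Leaving out any 1 of the 8 libraries of T2 gave between 1 and 3 called members, and leaving out 50 B1T3 gave 12. With mean fragment length as a covariate 2 were called. The share of all genes called in these refits is not given here, so the changes in count cannot be called particular to the members. In T2, mean fragment length was 184 ± 1.89 bases in culture 2 and 186 ± 0.905 bases in culture 1 (SD, n = 4 each), and its part in the difference was not tested.

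In T3 most members had a lower level in culture 2, without a call. None was called between the cultures, where 3.31% of all genes were called higher and 0.972% lower in culture 2. The median log2 difference was -0.08, but -0.02 without 50 B1T3 and -0.11 without 290 B1T3. Of the 59 differences 10 were positive and 14 had an unadjusted p below 0.05. DESeq2 and limma-voom called 0 members as well. In TPM, 4 members (MRPL13, MRPL17, MRP1 and MRP7) had all 4 libraries of culture 2 below all 4 of culture 1, where 7.93% of all genes did, and none had all 4 above, where 4.75% did.

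In T1 no member was called (0.0194% of all genes), the median log2 difference was 0.00 and 2 members had an unadjusted p below 0.05. Over all technical replicate numbers, culture 2 against culture 1 gave 0 called members in the model of speed and culture (0% of all genes called, 2 members at an unadjusted p below 0.05) and 0 in the three-factor model (0.37% of all genes, 4 members). The lowest adjusted p in the three-factor model was that of RSM28, with a log2 difference of 0.13 (SE 0.0365, adjusted p = 0.0428).

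The interaction of culture with technical replicate number was called for 2 members, where 6.3% of all genes were, and 29 of the 59 had an unadjusted p below 0.05, where 28.5% of all genes did. The 2 were MRPL13 (adjusted p = 0.00378) and MRPL4 (adjusted p = 0.00631). Outside T2, MRPL13 had 134, 129.8, 137 and 133 TPM in T3 of culture 2, against 156, 146, 139.7 and 144 TPM in T3 of culture 1, so that the order of the cultures was turned round. In T1 it had 119, 125, 121 and 119 TPM in culture 2, against 119, 120.1, 121 and 123 TPM in culture 1, with overlap.

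MRPL4 had 116, 116, 116 and 119.7 TPM in T3 of culture 2, against 150.1, 130.2, 129 and 119 TPM in T3 of culture 1. In T1 its values were 104, 101, 108 and 118 TPM in culture 2 and 117, 99.8, 108 and 104 TPM in culture 1, and both pairs overlapped. The number of interaction calls was not stable to the loss of 1 library. It was 0 without 130 B1T2, 290 B2T2 or 50 B2T3, 7 without 290 B1T3, and 1 without 50, 210 or 290 B1T2, 50 or 210 B2T2, 130 B1T3, or 130 or 210 B2T3.

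Genes that work with these proteins were counted by lists chosen for the pathway. Each list count for T3 against T1, here and below, stands beside 26.2% of all genes called higher and 23.1% called lower. The counts cover only listed genes that were tested. Of 11 tested mitochondrial ribosomal proteins outside the name rule (13 listed), 7 rose and none fell in T3 against T1. The median log2 difference was 0.18, close to that of the members. MNP1 (a counterpart of a bacterial stalk protein) rose by 0.26 (adjusted p = 1.07e-05), NAM9 by 0.24 and FYV4 by 0.33. MNP1 had 212 to 268 TPM in T3, against 175 to 198 TPM in T1.

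Factors of mitochondrial translation were mixed, with 3 of 9 higher and 1 lower (median 0.02). IFM1, the initiation factor 2 of mitochondria, rose by 0.33 (adjusted p = 1.32e-05) and MEF1, an elongation factor, by 0.28 (adjusted p = 3.14e-05). AIM23, the initiation factor 3, fell by 0.29 (adjusted p = 2.03e-06), with a median of 49.0 TPM in T3 and 58.1 TPM in T1.

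Of 10 genes for assembly of the mitochondrial ribosome and modification of its rRNA, 6 rose and 2 fell (median 0.16). MRM1, an rRNA ribose methyltransferase, rose by 0.41 (adjusted p = 1.11e-08), with 70.8 to 88.1 TPM in T3 and 51.0 to 59.2 TPM in T1. MRM2, another rRNA methyltransferase, fell by 0.23 (adjusted p = 3.35e-05), and GEP3 rose by 0.34 (adjusted p = 2.85e-05).

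Of 13 tested activators of the translation of single mitochondrial mRNAs (14 listed), 4 rose and none fell (median 0.07), where 26.2% of all genes rose. CBP3, which serves cytochrome b, rose by 0.22, PET111, which serves COX2, by 0.24 and PET309, which serves COX1, by 0.17. Of 14 genes for mitochondrial transcription and tRNA synthetases, 6 rose and none fell (median 0.10), among them the synthetase genes MSR1 by 0.26 and MSY1 by 0.27 and the transcription factor gene MTF1 by 0.21. Of 8 regulators, 3 rose and 1 fell (median 0.10), where HAP5 of the Hap complex fell by 0.17 and FHL1 and IFH1, which act on cytosolic ribosomal protein genes, rose by 0.11 and 0.12.

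Of 34 listed nuclear genes for the respiratory chain and ATP synthase, whose complexes hold the products of the mitochondrial ribosome, 24 were tested. In T3 against T1, 13 of the 24 were higher and 2 lower (median 0.20). COX13 rose by 0.48 (adjusted p = 3.28e-05), QCR6 by 0.46 and COX6 by 0.40. In T2 against T1 none of the 24 was called and all 24 were below 0 (median -0.10), where the members had a median of 0.06. In T3, 19 of the 24 were higher in culture 2 than in culture 1 (median 0.36), where 3.31% of all genes were called higher. Of the 59 members 0 were called in that comparison (median -0.08).

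Cytosolic ribosomal protein genes had 46 of 67 higher and none lower in T3 against T1 (median 0.15). Of 20 listed ribosome biogenesis genes, all 19 that were tested rose (median 0.62), with NOP1 by 0.61, CBF5 by 0.44 and GAR1 by 0.40. In T2, 28 of the 67 cytosolic genes were lower in culture 2 than in culture 1 (median -0.17), where 3.25% of all genes were called lower. In that comparison 6 of the 59 members were higher (median 0.12), where 5.02% of all genes were. No difference between lists was tested, and the comparisons that share T1 share control libraries.

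**Figure D5:**
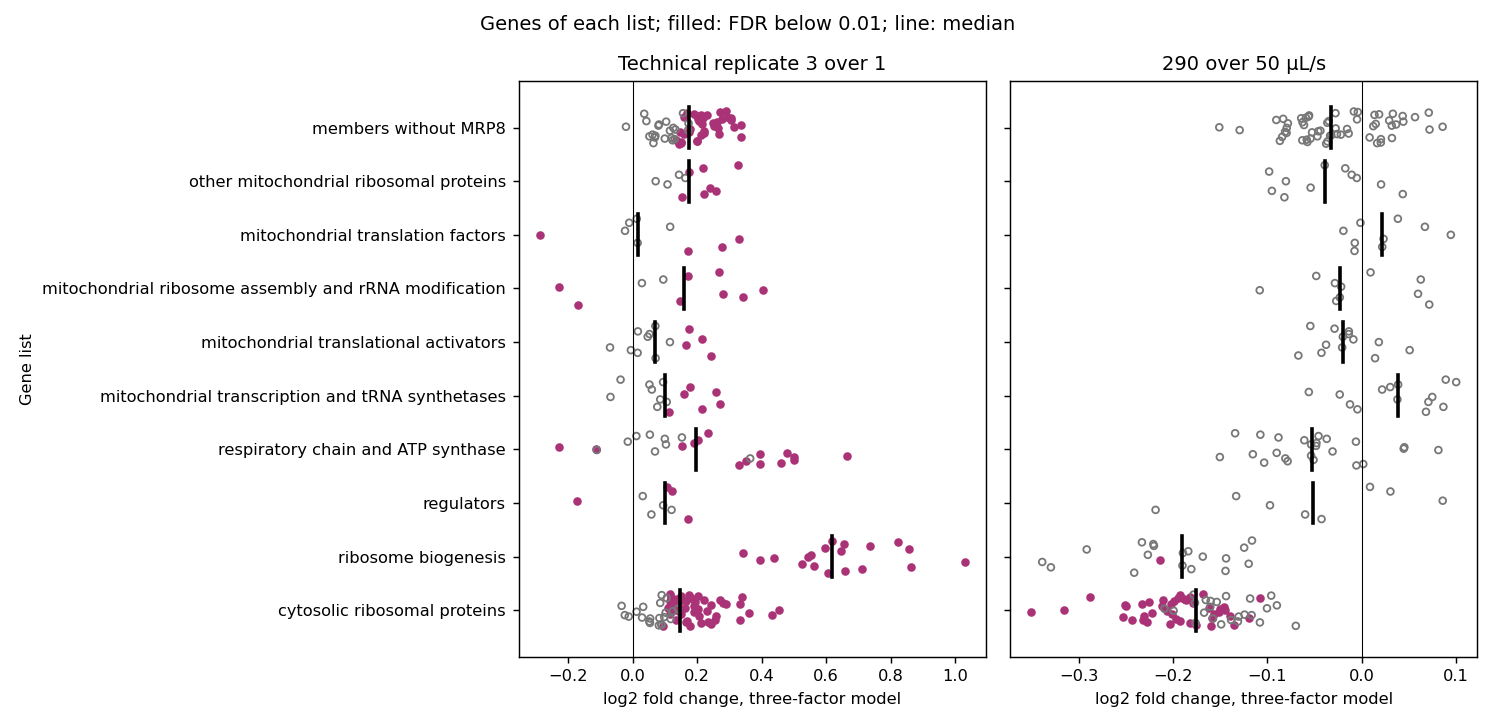
Log2 fold change of each gene in the members without MRP8 and in 9 other lists, for T3 over T1 (left) and 290 over 50 µL/s (right, on a narrower scale), with filled points below an adjusted p of 0.01 and lines at the median. For T3 over T1 the medians of all lists are above 0 and that of ribosome biogenesis is the highest, and for 290 over 50 µL/s calls are seen in cytosolic ribosomal protein and ribosome biogenesis genes but in no member.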

How the data were processed

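Poly(A) RNA of 24 libraries was sequenced as strand-directional read pairs. The authors trimmed reads with fastp 0.23.2, aligned them with STAR 2.7.10a and quantified genes with RSEM on the W303 genome, and deposited expected counts (estimated, 23.8% not whole) and TPM per gene. Expected counts were rounded. Genes with an average count above 1 were kept (5142 of 5193), and 5151 gene IDs were matched to symbols in the R64 annotation. The edgeR 4.0.16 quasi-likelihood test (R 4.3.3, TMM factors) was fitted over all genes with speed and culture, as in the study, and with technical replicate number added, and interactions were added for culture by number and speed by number. Adjusted p is Benjamini-Hochberg at 0.01. Alternatives were DESeq2 1.42.0, limma-voom 3.58.1, other scalings, filters, covariates and thresholds, and leaving out each library. The code was tested on simulated data. TPM were averaged or summed without a test.

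Depth was 11555761 to 15464428 counts per library. Replicates of a group were not copies of each other: the chi-square per degree of freedom over the members was 1.99 to 61.9 in 24 pairs. Deviations from the speed means correlated at a median of 0.52 over 36 pairs of libraries with the same culture and number at different speeds, all above 0.1, so the numbers pair samples across speeds, although no source says what they mark.

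Members and lists were chosen with earlier results of these data known. Members named with values were the 6 highest and 4 lowest in level, the 8 lowest p in each direction for T3 against T1, the 4 lowest p in T2 against T1 and in T3 against T2, the 6 lowest p at 290 against 50 µL/s, all called by culture, the extreme folds, and MRP8. Up to 3 genes by lowest p were named from each other list. MRPL11, MRPL16, MRPL17, MRPL40, MRP7, MRP17 and MRP35 lie outside this rule and were chosen after their values were seen.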

Additional observations from a re-analysis of the deposited data

Results flagged for a closer look

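In 50 B1T3 the summed levels of the members stood apart from the other 7 libraries of T3, at 9530.2 TPM for all members, 5347 TPM for the large subunit and 3873 TPM for the small subunit. The same library stood apart in T3 for 6 single members, MRPL23 (229.8 TPM), MRPL4 (150.1 TPM), MRPS12 (411 TPM), MRPS18 (201 TPM), MRPS28 (144 TPM) and RSM22 (39.8 TPM). In T1, 50 B1T1 stood low for MRP2, at 108 TPM. These are 10 of 103 groups examined with Dixon's test at the 95% level, where chance gives about 1 in 20 for independent groups. The groups share libraries, the sums contain the single members, and all flags but that of MRP2 fall on 50 B1T3. The number of flags can therefore not be set against that rate. The effect of technical replicate number differed between the cultures for MRPL13 (interaction adjusted p = 0.00378) and MRPL4 (interaction adjusted p = 0.00631). This is 3.39% of the members, where 6.3% of all genes were called, and the count was 0 to 7 with 1 library left out.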

How the results depend on the processing

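No member was called by speed under any alternative run. In T3 against T1 the count of called members was 38 and 32 to 41 with 1 library left out, 50 with library totals, 19 in culture 1 alone and 23 in culture 2 alone. In T2 against T1 it was 1, and 0 with library totals, 2 with DESeq2, 7 at a threshold of 0.05, 2 with only the libraries compared, 0 without MRP8, 0 in culture 1 alone, 5 in culture 2 alone and 0 to 5 with 1 library left out. In T3 against T2 it was 17, and 29 at 0.05, 11 with only the libraries compared, 3 in culture 2 alone and 8 to 20 with 1 library left out. Between the cultures in T2 it was 6, and 18 at 0.05, 2 with fragment length and 1 to 12 with 1 library left out. In T3 it was 0, and 0 to 1 with 1 library left out. The interaction of culture and number gave 2, and 5 with library totals, 10 at 0.05 and 0 to 7 with 1 library left out. Culture over all libraries gave 0 in the three-factor model and 1 at 0.05. The cause of these changes was not tested. Except for the fits within 1 culture, the share of all genes called under these alternatives is not given here. The changes in count can therefore not be called particular to the members. MRPL24 in T3 against T1 was -0.02, and 0.0306 with library totals.

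With technical replicate as a replicate block, 0 members were called at every speed. With no replicate block (culture dropped) the counts were 36 in T3 against T1, 1 in T2 against T1 and 15 in T3 against T2, and no speed call changed. Among the values of single genes, outside those that leave out a library, 615 kept direction and side of the threshold, 17 gained a call, 36 lost it and 1 reversed. Fits within 1 culture were chosen after seeing the data. Restriction to the libraries compared gave no value for culture over all libraries, and covariates were not added to interactions.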
